A study of Mus musculus with 5 samples.

Results

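The Rab, Arf, Arl and Sar1 genes encode small GTPases that direct membrane traffic, and their liver transcripts were compared between mice homozygous for the eyeless mutation of Pitx3 and a wild-type RNA pool. Members were taken by gene name from the array's probe annotation: symbols that begin with Rab, Arf or Arl followed by a digit, and Sar1a or Sar1b. This gave 89 probes of 63 genes, of 20355 probes and 9930 named genes on the array. Of the 63 genes, 52 carry the name of a GTPase (68 probes), and 11 are partners or regulators named after a GTPase (21 probes), such as the Rab11fip genes.

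The livers came from 5 male mice of 17 weeks with the genotype Pitx3eyl-/-. Pitx3 encodes a homeobox factor needed for the lens and for dopamine neurons of the midbrain. Each 2-colour cDNA array carried the RNA of 1 mutant liver beside the same wild-type pool, which held 4 mice per the sample labels and 6 per the labelling protocol. Replicates 1, 2 and 4 had the mutant RNA in Cy5, and replicates 3 and 5 had it in Cy3. The labels used here do not say which sex or age the pooled mice had. Since no wild-type animal was hybridised on its own, the pool is 1 control sample and the spread between wild-type animals enters no error given below.

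Small GTPases of these families act as membrane switches: bound to GTP they sit on a membrane and recruit effectors, and bound to GDP they are released or held by a carrier protein. Exchange factors load the GTP and GTPase-activating proteins end the signal. Sar1 starts the COPII coat at the endoplasmic reticulum, Arf proteins recruit the COPI coat and clathrin adaptors at the Golgi, and each Rab marks its own compartment, such as Rab5 on early endosomes, Rab7 on late endosomes and Rab11 on recycling endosomes. In hepatocytes this traffic carries plasma proteins and lipoproteins out to the blood, moves transporters to the bile canaliculus and returns endocytosed receptors to the surface.

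Values are log2 ratios read as mutant over pool. That direction is likely and not known: the mutant is channel 1 in the labels, and ratios were read as turned on the swapped arrays before deposit. The basis for the turn is a fixed extreme value, taken as a code for a ratio that could not be formed, which was positive on the 3 arrays of the Cy5 orientation and negative on the 2 of the Cy3 orientation. Between 80 and 213 values of an array held this code and were set to missing. They lay at 16.3 or more in size, while the most extreme measured value of a member was 5.59. Measured values were missing for 21.9% to 33.3% of an array's probes. Array medians ran from -0.19 to 0.23. Pearson correlations over all probes ran from -0.26 to -0.05 between arrays of opposite dye orientation. Between arrays of the same orientation they ran from -0.02 to 0.11. The cause of this difference was not tested. A ratio carries no level, so the tissue label could not be checked by these values. Of 15 probes for hepatocyte markers, 8 had values on all 5 arrays, with a median SD between arrays of 0.43, but so did 7 of 12 for erythroid markers (0.33) and 6 of 12 for stellate cell markers (0.40). In bulk liver RNA, fewer cells of a type and less RNA per cell cannot be told apart. Tested probes for erythroid markers lay above 0 in 9 of 9 cases (median 0.27), from only 4 genes. Those for bile duct markers did in 4 of 4 (median 0.77), from 3 genes. Over all tested probes the share above 0 was 53.9%. For lymphocyte and endothelial markers it was 3 of 4 and 2 of 4. For pancreas, stellate cell and Kupffer cell markers it was 2 of 5, 2 of 8 and 1 of 4, and for hepatocyte markers 3 of 10. These counts hold for the likely direction: with replicates 3 and 5 turned, the medians were 0.05 for erythroid and 0.16 for bile duct markers. Their part in the member values was not tested.

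No member transcript was called different from the wild-type pool. Tests needed 4 or more measured arrays that covered both orientations. This held for 51 member probes of 44 genes and failed for 38 member probes. limma, fitted with a dye term over all 11300 probes that qualified, called 0 of the 51 members and 0% of all tested probes at an adjusted p under 0.05, with a lowest adjusted p of 0.999 in either set. At an unadjusted p under 0.05 limma gave 0 of the 51 members, against 4.16% of all tested probes (2.35% higher and 1.81% lower). The mutant coefficient, the log2 ratio with both dye orientations weighted equally, was above 0 for 29 members and below 0 for 22. Its median over the members was 0.02, against 0.04 over all tested probes, of which 53.9% lay above 0. Of the 29 member probes measured on all 5 arrays, 0 had the same sign on all 5, against 5.99% of all 6364 such probes.

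The 95% intervals bound the change that these arrays allow. The interval lay within 2-fold of the pool in either direction for 17 of the 51 members (33.3%), against 21.3% of all tested probes. The narrowest were those of Rab8a, at 0.682-fold to 1.66-fold, and of probe 17335 of Rab4a, at 0.519-fold to 1.29-fold. The widest belonged to Rab31, an endosomal Rab, with a log2 interval of -2.65 to 3.81, and to Arl2, an Arf-like GTPase that binds a tubulin-folding factor, with -3.77 to 2.59 for probe 12397.

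**Figure D1:**
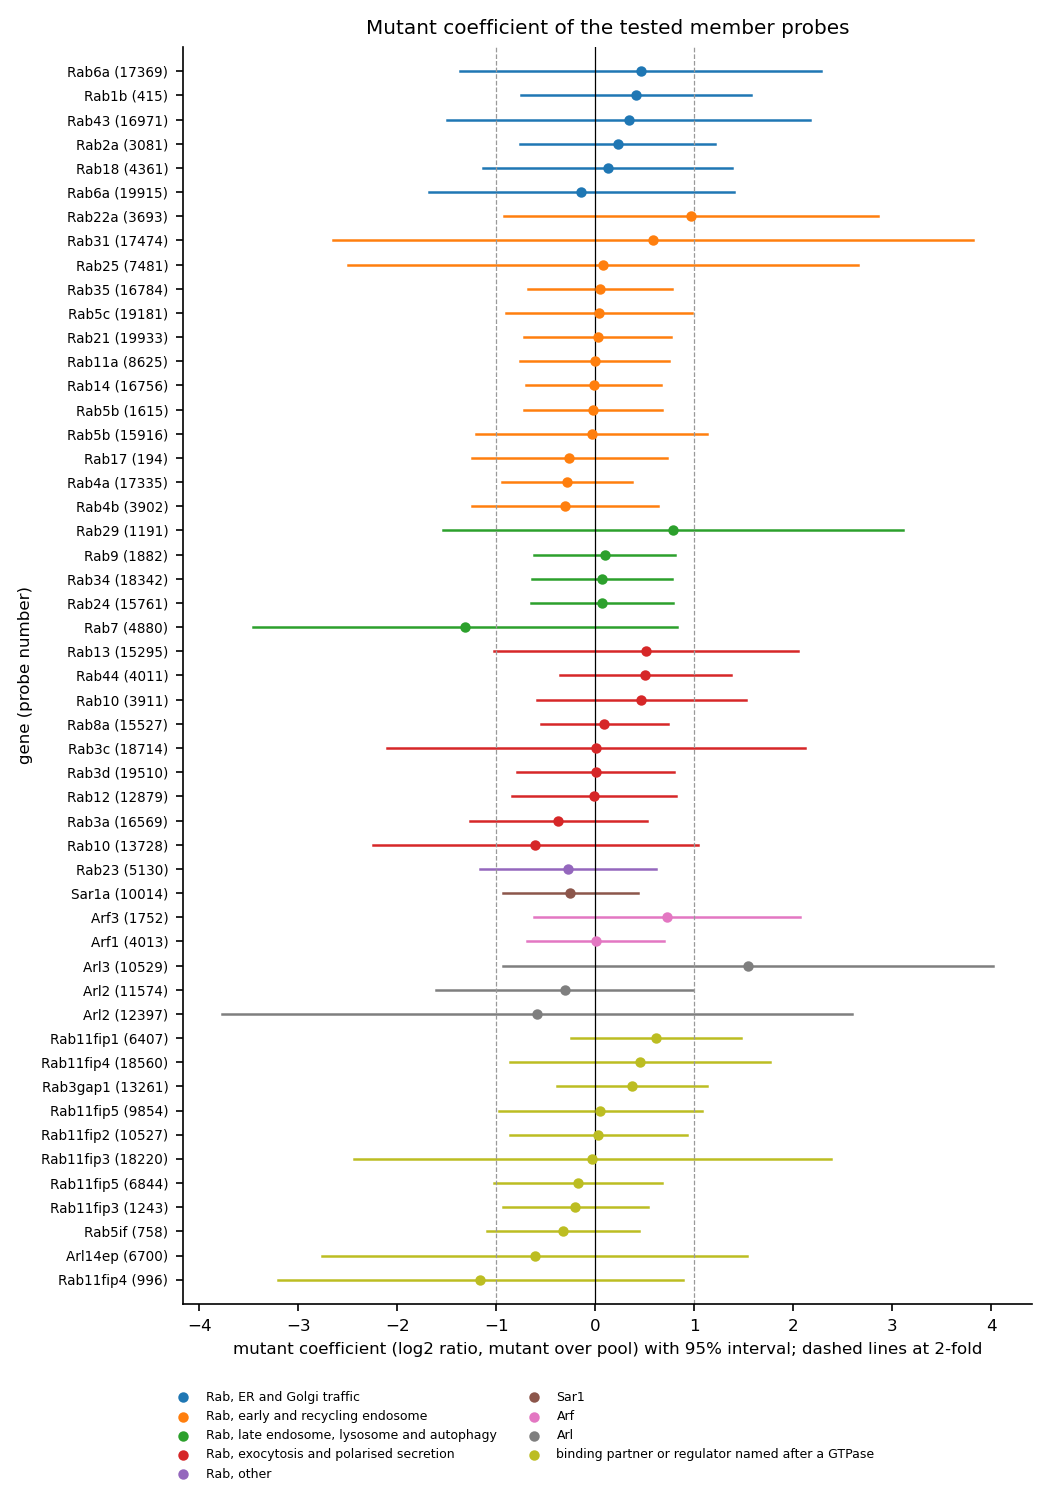
Mutant coefficient (points, log2 ratio of mutant over pool) with its 95% interval from limma (lines) for the 51 tested member probes, coloured by role. All intervals cross 0, and 17 lie between the dashed lines at 2-fold.

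Among Rabs of endoplasmic reticulum and Golgi traffic, 6 of 12 probes were tested, 5 above and 1 below 0, with a median coefficient of 0.28. Rab1b, which acts between the endoplasmic reticulum and the Golgi, had log2 ratios of -0.40, 0.78, 0.35 and 0.58 on replicates 1, 2, 4 and 5. It lay above 0 on 3 of its 4 arrays, with a coefficient of 0.41 ± 0.43 (SE), and of -0.17 with replicates 3 and 5 turned. Rab2a, which acts on the same route, had 1.21, 0.11, -0.30 and -0.10 on replicates 1, 2, 3 and 5, so its value leaned on replicate 1 (coefficient 0.23 ± 0.36). Rab18, known from lipid droplets and the endoplasmic reticulum, had 0.995, -1.19, 0.08 and 0.61 on replicates 1, 3, 4 and 5, with both signs among its arrays (0.13 ± 0.46).

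Rab6a, which drives transport within and from the Golgi, was measured by 2 probes that went different ways. Probe 17369 had -0.81, 1.49, 1.88 and -0.72 on replicates 2 to 5, with a coefficient of 0.46 ± 0.67. Probe 19915 had 0.50, 0.06, -1.47, 3.63 and -1.89 on replicates 1 to 5, with a coefficient of -0.14 ± 0.61. Probe 19915 was above 0 on every array with the mutant in Cy5 and below 0 on both with the mutant in Cy3. Rab43, another Golgi Rab, had a probe at 0.34 ± 0.67, and its other probe was measured on 3 arrays at -0.82, 0.58 and 4.68. Rab2b and both probes of Rab6b, the isoform best known from brain, were measured on 3 arrays each. Both probes of Rab19 had values on 0 arrays.

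Rabs of early and recycling endosomes formed the largest role group, with 21 probes of 14 genes. Of its 13 tested probes, 6 lay above and 7 below 0, with a median of -0.01, and 7 had intervals within 2-fold. Rab5 organises early endosomes. Rab5c had 0.00, 0.77, 0.64, -0.80 and -0.47 on replicates 1 to 5, with a coefficient of 0.04 ± 0.37. Probe 1615 of Rab5b had 0.69, -0.03, -0.29, 0.23 and -0.40, with a coefficient of -0.02 ± 0.27. Its probe 15916 was wider, with -0.80, 0.65, -0.45, -1.37 and 1.32, and a coefficient of -0.04 ± 0.46. All 3 probes lay on both sides of 0.

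Rab4a serves the fast return of receptors to the surface. Its probe 17335 had 0.12, -0.15, -0.39, -0.23 and -0.59 on replicates 1 to 5, below 0 on 4 of 5 arrays. The coefficient was -0.29 ± 0.26, and 0.20 with replicates 3 and 5 turned. Rab4b, its close relative, had -0.11, -0.89, 0.13, 0.59 and -1.08, with a coefficient of -0.30 ± 0.37. The sign of the coefficient was shared by the pair, while the arrays that stood lowest were both with the mutant in Cy3 for Rab4a and replicates 2 and 5 for Rab4b.

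Rab11a, of the slow recycling route and of traffic to the bile canaliculus, had 0.44, -0.48, 0.32, -0.48 and 0.01 on replicates 1 to 5, with a coefficient of -0.01 ± 0.30. Rab14, which works between the Golgi and endosomes, had 0.35, 0.17, -0.09, -0.27 and -0.14, with a coefficient of -0.01 ± 0.27. Both had intervals within 2-fold. Rab35, of the recycling of cargo at the plasma membrane, had 0.14, 0.03, 0.05, -0.66 and 0.46 for probe 16784 (0.05 ± 0.29), above 0 on 4 of 5 arrays. Rab21, which follows integrins into endosomes, had -0.001, 0.41, -0.28, 0.98 and -0.56 for probe 19933 (0.02 ± 0.29). Its probe 3675 had -0.84 and -0.79 on the 2 arrays that measured it, and probe 2358 had values of both signs on 3.

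Rab17, a Rab of polarised epithelial cells that includes hepatocytes, had 0.01, -1.07, -0.09 and 0.10 on replicates 1, 2, 3 and 5, with 3 arrays near 0 and replicate 2 apart (-0.26 ± 0.36). Rab22a, of early endosomes, had a coefficient of 0.97 ± 0.70, from 0.32, -0.80, 1.84 and 2.50 on replicates 2 to 5. Its other 2 probes, measured on 3 arrays each, had medians of -0.71 and -0.36, below 0. Each held an array above 0, at 0.004 for probe 9310 and at 3.31 for probe 18852. The coefficient of probe 3693 was 0.14 without replicate 5, 1.79 without replicate 3, 0.59 without replicate 4 and 0.12 with replicates 3 and 5 turned. Rab25, a relative of Rab11 in epithelia, had -0.25, 4.13, -0.11, -2.76 and -0.32 on replicates 1 to 5. Its replicates 2 and 4 thus stood far apart on opposite sides, and the coefficient was 0.08 ± 1.01. Rab31 had 2 arrays near 2.8 and 1 at -3.14. Its value on replicate 1, -0.19, was the most frequent value of that array. Rab15, an endosomal Rab known from neurons, and Rab20, known from phagosomes, were measured on 3 arrays each, with both signs.

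Among Rabs of late endosomes, lysosomes and autophagy, 5 of 10 probes were tested, with 4 above and 1 below 0 and a median of 0.07. Rab9, which returns receptors from late endosomes to the Golgi, had -0.19, 0.12, 0.29, 0.51 and -0.21 on replicates 1 to 5 (0.09 ± 0.28). The Rab9 value on replicate 1 was that array's most frequent value, so its sign gives no direction. Rab24, linked to autophagy, had 0.74, 0.28, -0.42, -0.03 and 0.04 (0.07 ± 0.28), and Rab34, linked to lysosome position and cilia, had -0.07, 0.42, 0.23, -0.37 and 0.06 (0.07 ± 0.28). All 3 had intervals within 2-fold. Rab29, known for its link to the kinase LRRK2, had -0.39, 3.55, 0.88 and -0.92 on replicates 1, 3, 4 and 5, with replicate 3 far above the others (0.78 ± 0.86). Rab39b had both signs on 3 arrays.

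Rab7, the Rab of late endosomes and lysosomes, had 4 probes. Probe 4880 had -0.30, -4.32, 0.33 and -0.96 on replicates 1, 2, 3 and 5, with a coefficient of -1.31 ± 0.79 (limma adjusted p 0.999). Its value rested on replicate 2: without that array the coefficient was -0.31. It was -2.32 without replicate 1, and -0.997 with replicates 3 and 5 turned. Probe 17812 had -0.29, -0.63 and 0.17 on replicates 2 to 4, probe 6556 had -4.73 on replicate 1 alone and probe 18933 had -0.86 on replicate 4 alone. The average of the 4 probes lay below 0 on all 5 arrays, with a coefficient of -1.14 ± 0.43 and a limma adjusted p of 0.998. Different probes made up that average on different arrays.

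Of 12 probes for Rabs of exocytosis and polarised secretion, 9 were tested, with 6 above and 3 below 0 and a median of 0.01. Rab8a, which carries vesicles to the plasma membrane and the primary cilium, was the steadiest member, with 0.17, 0.15, 0.07, 0.18 and -0.04 on replicates 1 to 5. Its SD between arrays was 0.091, at percentile 0.220 of all probes on 5 arrays. Its coefficient was 0.09 ± 0.25, where the SE exceeds the SD between arrays because limma draws each variance towards a prior SD of 0.85. Rab3d, of regulated secretion, had 0.58, -0.48, -0.29, -0.25 and 0.41 (0.00 ± 0.31), and Rab12 had 0.45, 0.39, 0.23, -0.75 and -0.33 (-0.01 ± 0.33).

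The other exocytic Rabs were less steady. Rab10, of insulin-stimulated and basolateral delivery, had -0.56, -1.56, 1.51 and 2.48 on replicates 1, 2, 3 and 5 for probe 3911, with a coefficient of 0.47 ± 0.39. Its probe 13728 had -0.13, -1.49, -0.999 and 0.97 on replicates 1 to 4, with a coefficient of -0.61 ± 0.60. The probes thus differed in sign, both for the coefficient and on replicate 3. Rab3a, known from synaptic vesicles, had 0.12, -1.43, -0.41, -0.83 and 0.35 on replicates 1 to 5 (-0.37 ± 0.35). Rab44, a large Rab known from immune cells, had -0.23, 0.48, 0.86, 1.24 and 0.18 (0.51 ± 0.34), above 0 on 4 of 5 arrays. Rab26, known from regulated secretion, was measured on 3 arrays and was below 0 on each, at -1.38, -2.06 and -3.08 on replicates 1, 3 and 5. It had too few values for the test. Rab13, of tight junctions, had a coefficient of 0.51 ± 0.56, and Rab3c, of regulated secretion, one of 0.01 ± 0.78. Rab37 and Rab3b had values on 2 arrays and 1 array.

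Sar1a, the GTPase that starts COPII vesicles, had -0.36, -0.31, -0.05, -0.89 and 0.07 on replicates 1 to 5, with a coefficient of -0.25 ± 0.27. It was below 0 on 4 of 5 arrays, and on all 5 once arrays were centred on their medians. Arf1, which recruits COPI and clathrin adaptors at the Golgi, had 0.51, 0.12, -0.20, -0.21 and -0.06, with a coefficient of 0.01 ± 0.27. Both intervals lay within 2-fold. Arf3, its close relative, had -1.12, -0.66, 1.86 and 0.57 on replicates 1 to 4 (0.73 ± 0.50), with both signs. With replicates 3 and 5 turned, the coefficient of Arf3 was -1.13. Arf4 was measured on replicates 3 and 5 at 1.90 and 0.08, and Arf2 on replicates 1 to 3 at 1.45, 1.57 and -3.65. Neither could be tested.

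Arl3, which unloads lipid-modified proteins into the cilium, had a coefficient of 1.54 ± 0.91, the most positive among members, and 1.62 with replicates 3 and 5 turned. Its values were 2.24, 1.67, 5.59 and -0.08 on replicates 1, 2, 4 and 5. They lay above 0 on all 3 arrays with the mutant in Cy5. The 1 value with the mutant in Cy3, -0.08, was also the most frequent value of replicate 5, so its sign gives no direction. Of the 4 values, 2 matched ratios of whole numbers up to 20, and the probe was not tested without such values. Without replicate 4 the coefficient was 0.94. Arl2 had 2 probes: probe 11574 had 0.56, -0.64, -0.99 and -0.26 on replicates 1, 2, 4 and 5 (-0.31 ± 0.48), and probe 12397 had -5.51, 1.85, -1.84, -1.34 and 2.81 on replicates 1 to 5 (-0.59 ± 1.26). They shared the sign of the coefficient, but the sign of the array value on only 1 of 4 arrays. Arl9, Arl11 and Arl16 had values on 1 or 2 arrays.

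Of 21 probes for partners and regulators, 11 were tested, with 5 above and 6 below 0 and a median of -0.03. Rab11fip1, an effector that links Rab11 to recycling vesicles, had 0.55, 0.72, -0.24, 1.80 and 0.63 on replicates 1 to 5 for probe 6407. It lay above 0 on 4 of 5 arrays (0.61 ± 0.34, limma adjusted p 0.999), with a coefficient of 0.41 where replicates 3 and 5 were turned. Its other probe had -1.91, -0.70 and -0.08 on replicates 1, 3 and 5, the last equal to the most frequent value of replicate 5. Rab3gap1, a subunit of the complex that acts on Rab3 and Rab18, had 0.13, 0.02, 0.39, -0.47 and 1.32 for probe 13261 (0.37 ± 0.30). With replicates 3 and 5 turned, that coefficient was -0.48. Rab5if had 0.16, -0.39, -0.70, -0.73 and 0.03 (-0.33 ± 0.30). Rab11fip4 had a probe at -1.16 ± 0.75 and another at 0.45 ± 0.48, so its probes differed in sign. With replicates 3 and 5 turned, they stood at 1.02 and 0.41. Arl14ep had a coefficient of -0.61 ± 0.85, with -4.03 on replicate 2. Arl2bp, which binds Arl2, had both signs on 3 arrays for each of its probes, and Rab3il1, an exchange factor, had values on 1 and 2 arrays.

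Members differed widely in how steadily they were measured. Of the 89 probes, 29 were measured on all 5 arrays (32.6%), 22 on 4, 35 on 1 to 3 and 3 on 0, which were those of Rab19 and Rab36. The share on all 5 was 31.3% for all probes. Among the 29 probes on all 5 arrays the SD between arrays ran from 0.091 to 3.30, with a median of 0.52, against 0.71 over all such probes. It was under 0.5 for 14 of the 29 (48.3%), against 32.6% of all. These 14 were Rab8a, Rab14, Rab4a, Arf1, Rab34, Rab9, Rab11fip3, Sar1a, Rab5if, Rab35, Rab24, Rab11a, Rab5b and Rab3d. On 18 of the 29 (62.1%) every array value lay within 2-fold of 0, against 40.8% of all. The comparison describes probes and has no test.

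**Figure D2:**
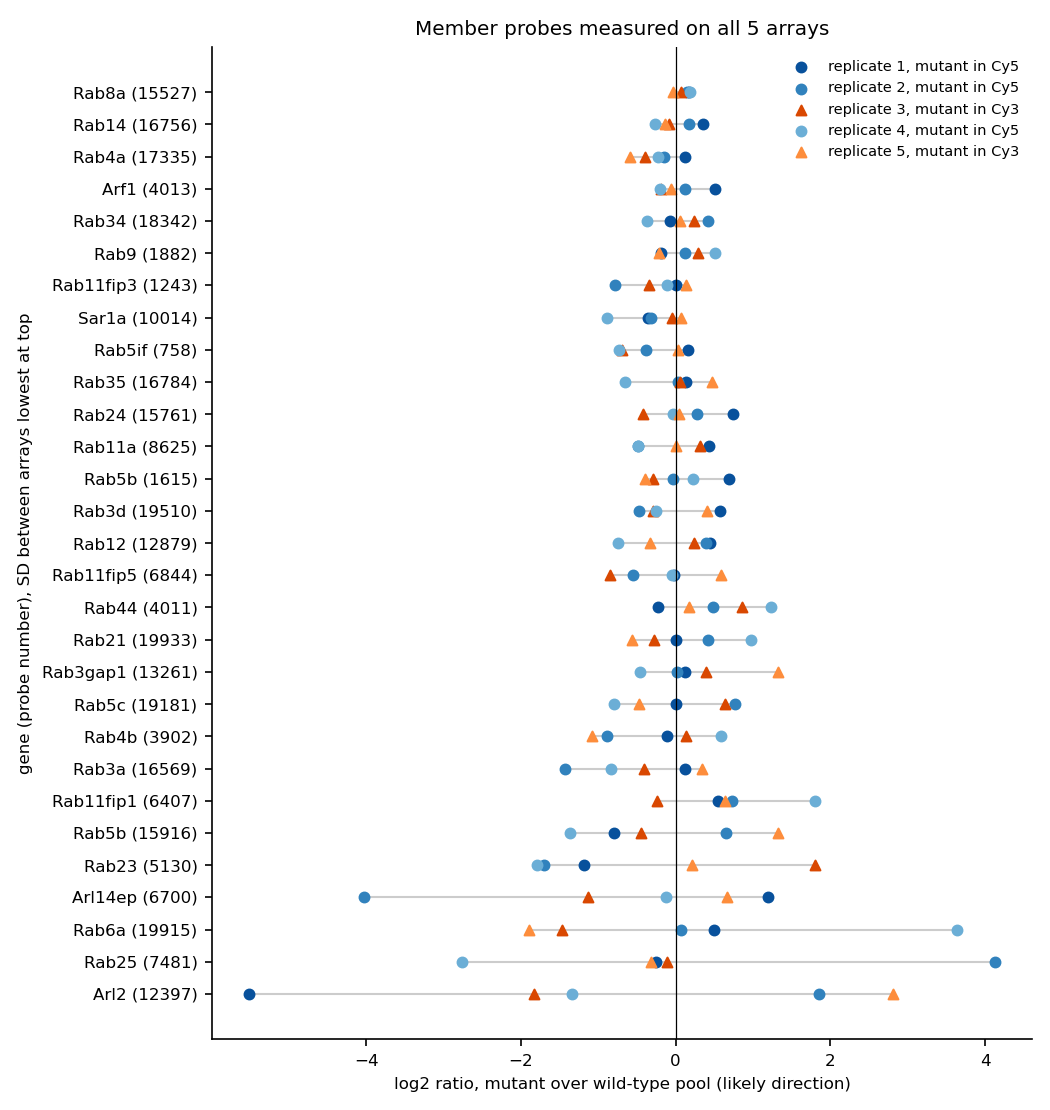
Log2 ratio of mutant over pool (x axis) on each array for the 29 member probes measured on all 5, ordered by SD between arrays with the lowest at the top; circles are arrays with the mutant in Cy5, triangles those with the mutant in Cy3. Values of Rab8a, at the top, lie between -0.04 and 0.18, and those of Arl2, at the bottom, between -5.51 and 2.81.

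**Figure D3:**
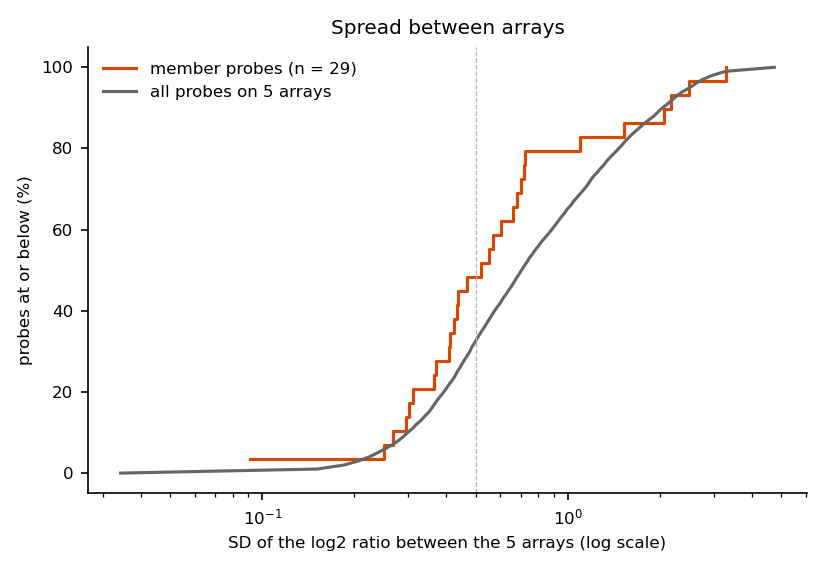
Share of probes (y axis, %) with an SD between the 5 arrays at or below the value on the x axis (log scale), for the 29 member probes and for all 6364 probes measured on 5 arrays. At an SD of 0.5, marked by the dashed line, the share is 48.3% for members and 32.6% for all probes.

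Extreme ratios were more frequent in probes with missing values, though 11 of the 29 members measured on all 5 arrays also held a value beyond 2-fold. Of the values of member probes measured on all 5 arrays, 16.6% were beyond 2-fold, and of those of the remaining member probes, 44.2%; over all probes the shares were 23.1% and 52.2%. An array's constant is its most frequent value, which ran from -0.335 on replicate 2 to 0.463 on replicate 4. Values at that constant plus the log2 of a ratio of whole numbers up to 20 were counted. They made up 12.4% of the values of members on all 5 arrays and 29.7% of those of the remaining members. Over all probes these shares were 17.5% and 28.7%. Such values are those a spot gives when both channels hold small whole numbers, but with so many possible ratios some of the matches can be coincidence. The code for an unmeasurable ratio occurred in 7 member values: once each in Rab6b, Rab3b, Rab28, Arl2bp and Rab3gap1, and on replicate 2 in both probes of Rab3ip, a factor that loads Rab8 with GTP.

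The stretches upstream of 4 member genes are shown because they span that range of measurement: Rab8a and Rab14 had the lowest SDs between arrays, Rab25 had the highest SD among Rab probes on 5 arrays and Rab19 was measured on 0 arrays. Each is the 250 bases before the gene start in RefSeq for GRCm38.p6, given 5′ to 3′ on the gene's strand, with each CG dinucleotide in capitals. The Rab8a stretch is chr8:72160950-72161199 on the plus strand, that of Rab14 is chr2:35201121-35201370 on the minus strand, that of Rab25 is chr3:88548280-88548529 on the minus strand and that of Rab19 is chr6:39381103-39381352 on the plus strand.
Rab8a: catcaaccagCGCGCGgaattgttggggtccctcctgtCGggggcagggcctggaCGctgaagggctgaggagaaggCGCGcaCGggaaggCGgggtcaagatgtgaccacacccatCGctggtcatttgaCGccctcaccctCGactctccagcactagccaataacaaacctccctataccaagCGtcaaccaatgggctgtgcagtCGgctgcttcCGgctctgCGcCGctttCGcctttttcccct
Rab14: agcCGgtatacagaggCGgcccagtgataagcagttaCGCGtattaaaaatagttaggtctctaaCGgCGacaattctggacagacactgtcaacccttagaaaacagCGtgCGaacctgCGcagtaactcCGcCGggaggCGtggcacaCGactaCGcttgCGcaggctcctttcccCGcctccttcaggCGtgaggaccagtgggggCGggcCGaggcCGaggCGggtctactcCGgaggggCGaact
Rab25: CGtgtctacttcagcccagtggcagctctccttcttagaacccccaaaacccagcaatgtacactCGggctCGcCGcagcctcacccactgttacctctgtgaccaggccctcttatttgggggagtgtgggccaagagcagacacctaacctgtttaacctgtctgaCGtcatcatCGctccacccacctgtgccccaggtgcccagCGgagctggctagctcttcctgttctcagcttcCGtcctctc
Rab19: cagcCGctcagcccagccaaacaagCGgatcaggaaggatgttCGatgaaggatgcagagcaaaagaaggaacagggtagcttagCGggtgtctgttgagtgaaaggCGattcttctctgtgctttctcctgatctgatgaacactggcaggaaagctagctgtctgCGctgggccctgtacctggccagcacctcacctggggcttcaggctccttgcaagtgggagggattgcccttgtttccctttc
The stretches of Rab8a and Rab14 held 18 and 23 CG dinucleotides, and those of Rab25 and Rab19 held 8 and 6. Arl2 and Rab6a, which with Rab25 had the highest SDs among members on 5 arrays, held 20 and 24 in theirs, not shown.

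Such stretches were found for 54 of the 63 member genes, with counts averaged where a gene had several starts. Fewer than 10 CG dinucleotides stood in 1 of 13 member genes with a probe on all 5 arrays at an SD under 0.5, namely Rab9 with 7. The same held for 3 of 12 member genes whose probes on all 5 arrays had larger SDs and for 10 of 29 with no probe on all 5. The medians were 18, 20 and 14.5. Over all 54 member genes it held for 25.9%, and over the 8012 named array genes with such a stretch for 31.2%. The letters GGGCGG, searched on both strands and holding a CG themselves, occurred upstream of 79.6% of member genes and 60.2% of named array genes. CACGTG, the same on both strands and holding a CG, occurred in 13.0% and 9.79%, and CCAAT on either strand in 44.4% and 40.3%. These are counts of letters and carry no test.

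**Figure D4:**
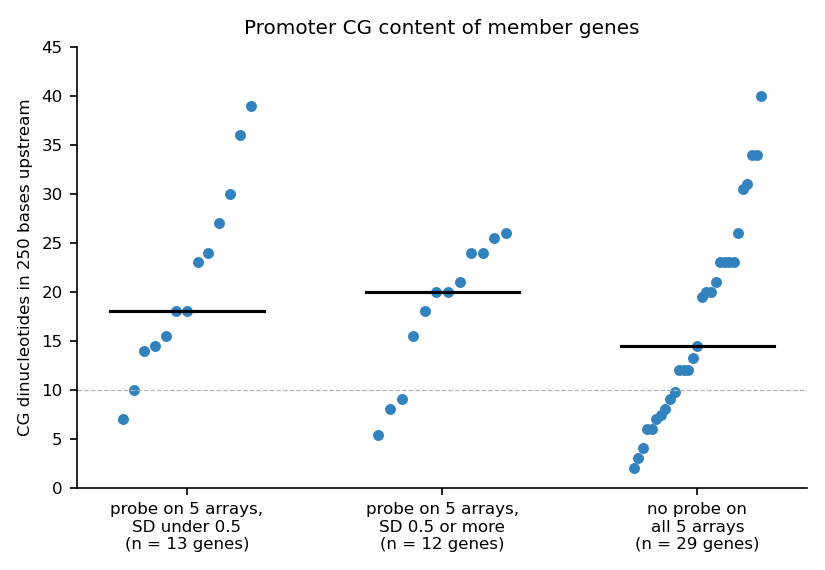
Number of CG dinucleotides in the 250 bases upstream (y axis, mean over a gene's starts) for 54 member genes, grouped by how their best probe was measured; points are genes and black lines medians of 18, 20 and 14.5. Below the dashed line at 10 lie 1 of 13, 3 of 12 and 10 of 29 genes.

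Probes of the same gene often differed. Of the 63 genes, 20 had more than 1 probe, and 7 had 2 tested probes. The coefficients of the pair had the same sign for 3 of the 7 genes (42.9%; Arl2, Rab11fip3 and Rab5b), against 51.6% of 1777 such pairs over all genes. On 27 array values measured by both probes of a pair, the signs matched in 11. Steady and scattered probes stood beside each other in the same gene. For Rab35, probe 16784 had an SD of 0.41 over 5 arrays, while probe 16423 had 2.69, -3.35 and 1.38 on replicates 1, 3 and 4. For Rab4a, the steady probe stood beside one at -0.65, -0.27 and 2.39 on replicates 1, 3 and 4. For Rab11fip3, SDs were 0.36 for probe 1243 and 2.20 for probe 18220. For Rab5b they were 0.44 for probe 1615 and 1.09 for probe 15916. Gene names rest on the platform's annotation. For Rab11fip5 the tested probes had coefficients of -0.17 ± 0.33 and 0.05 ± 0.38.

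**Figure D5:**
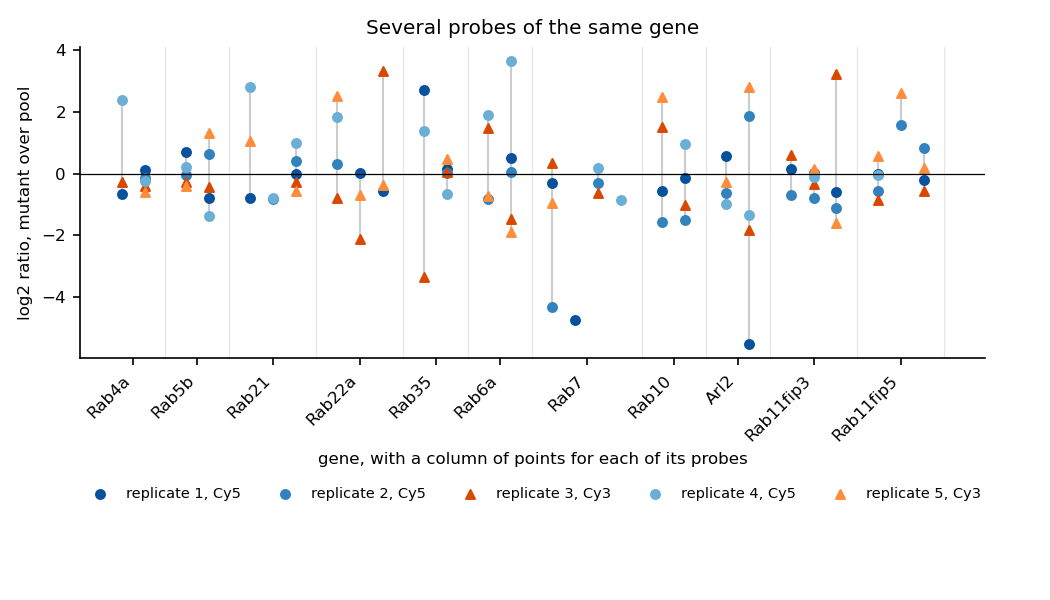
Log2 ratio of mutant over pool (y axis) on each array for the probes of 11 member genes, with a column of points per probe; circles are arrays with the mutant in Cy5 and triangles those with the mutant in Cy3. Within Rab35, a probe with values from -3.35 to 2.69 stands beside one with values from -0.66 to 0.46.

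Dye orientation was read from the same fit. The dye coefficient is the Cy5-orientation mean minus the Cy3-orientation mean, divided by 2, and its size exceeded that of the mutant coefficient in 31 of the 51 members (60.8%), against 52.9% of all tested probes. limma called 0 members and 0% of all tested probes for it. At an unadjusted p under 0.05 it gave 2 members (3.92%), both below 0, against 7.38% of all tested probes in either direction and 5.89% below 0. They were Rab23, a Rab of cilia and hedgehog signalling, and probe 3911 of Rab10. Rab23 had -1.19, -1.70 and -1.79 on replicates 1, 2 and 4 (Cy5), and 1.80 and 0.21 on replicates 3 and 5 (Cy3), so the orientations did not overlap. Its dye coefficient was -1.28 ± 0.35 (limma adjusted p 0.495) and its mutant coefficient -0.28 ± 0.35. The dye coefficient of Rab10 was -1.53 ± 0.39 (limma adjusted p 0.521), with probe 3911 below 0 in Cy5 and above 0 in Cy3. If the swapped arrays had not been turned before deposit, the dye coefficient would be the mutant coefficient.

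The mean with the mutant in Cy5 and the mean with it in Cy3 had the same sign for 20 of 51 members (39.2%), against 47.1% of all tested probes. The median of the members' means was -0.01 with the mutant in Cy5 and -0.03 with it in Cy3, against -0.02 and 0.10 over all tested probes. On single arrays, 18, 17, 11, 8 and 17 of the 29 members measured on all 5 lay above 0 on replicates 1 to 5, and their medians were 0.12, 0.06, -0.20, -0.25 and 0.04. Over all probes measured on 5 arrays these medians were 0.11, -0.004, -0.05, -0.09 and 0.10.

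Regulators, effectors, coats and fusion proteins that work with these GTPases were read from the same fit in 9 lists. limma called 0 of the 178 tested probes of these lists at an adjusted p under 0.05, and 4 had an unadjusted p under 0.05, where 4.16% of all tested probes did. A list of factors that attach lipid to Rabs or other proteins, or that bind and carry them, had 7 of 9 tested probes above 0 (median 0.06). Not all of these factors are specific to Rabs. Rabif stood at 1.09 ± 0.93 and Unc119b at -0.67 ± 0.34. Rab exchange factors had 12 of 25 above 0 (median -0.01). They held 2 of the 4 probes, both subunits of the TRAPP complex: Trappc2l at -1.46 ± 0.48 and Trappc4 at -0.68 ± 0.26. Trappc4 lay between -0.91 and -0.37 on all 5 arrays. Trappc2l had -2.28 and -4.26 on replicates 1 and 4 (Cy5), and 0.74 and -0.055 on replicates 3 and 5 (Cy3). Its dye coefficient of -1.81 was larger in size than its mutant coefficient. Trappc4 was named after its values were seen. On the other side of 0 stood Rgp1, of the Rab6 exchange factor, at 2.00 ± 0.92.

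Rab GTPase-activating proteins had 10 of 19 tested probes above 0 (median 0.06). They held Tbc1d23, a Golgi adaptor of that family, at -1.67 ± 0.42, with -1.41, -0.99, -1.63 and -2.67 on replicates 2 to 5. It was below 0 on all 4 of its arrays (limma adjusted p 0.999). Tbc1d30 stood at 1.57 ± 0.63, with arrays from -1.94 to 5.43. Exchange factors and GTPase-activating proteins of Arfs had 17 of 31 above 0 (median 0.02), with Git2 at 1.21 ± 0.49 and Iqsec2 at -0.64 ± 0.33. Git2 was above 0 on all 5 arrays, from 0.22 to 3.18. Effectors and tethers had 16 of 29 above 0 (median 0.09), with Rims1 at 0.89 ± 0.40 and Rbsn, which binds Rab4 and Rab5, at -1.25 ± 0.59.

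Coats and fusion proteins likewise held values of either sign. COPI subunits had 5 of 7 tested probes above 0 (median 0.06), with Copb2 at 1.23 ± 0.54 and Copg1 at -0.97 ± 0.44. COPII components, which Sar1 recruits, had 2 of 6 above 0 (median -0.09), with Sec24b at 0.85 ± 0.39 and Sec31a at -0.15 ± 0.28. Clathrin and adaptor subunits had 11 of 23 above 0 (median -0.07), with the adaptor Gga2 at 1.61 ± 0.82 and the light chain Clta at -1.29 ± 0.56. SNARE fusion proteins had 20 of 29 above 0 (median 0.20), where 53.9% of all tested probes were, but the median was -0.21 with replicates 3 and 5 turned. They held Vamp3, a SNARE of recycling endosomes, at 1.16 ± 0.38, from 2.47, 2.10, 0.66 and -0.59 on replicates 1, 2, 3 and 5, and Bet1l at -1.82 ± 0.81. The limma adjusted p was 0.999 for every gene named from these lists.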

How the data were processed

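Members and gene lists were chosen with earlier results of these data known. The authors deposited log2 ratios of the 2 channels of each array; the log base was read from the values, since each array's code equals its most frequent value plus or minus the log2 of 100000, within 0.001. Per the labels' protocols, 20 µg of total RNA were reverse transcribed and labelled indirectly with Cy3 or Cy5. Scanner, background correction and normalization are not stated in the sources read. All value columns were used (0 left out). Values over 12 in size were set to missing, as codes. Genes came from the platform annotation: 14030 probes carry 1 symbol, 5 several, and 6320 are unnamed here. All 63 member genes were in the gene table of GRCm38.p6, which changed 0 symbols.

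With limma 3.58.1 in R 4.3.3, a mean and a dye effect were fitted per probe (lmFit, eBayes), tested two-sided against 0 and adjusted by Benjamini-Hochberg over all tested probes. Gene lists are described by counts and medians. Members named were 32 GTPases of well-known role (20 have a probe, and the other 12 were not analysed here), the 6 lowest p above and below 0, genes with 2 or more tested probes, the 3 lowest p for dye and the extremes of SD; lists give the lowest p on each side. Other members were added for their role group after their values were seen. The fit was tested on simulated data and recovered the sizes put in. At the spread of these arrays, which also holds dye differences, it called none of the changes put in. An absence of calls thus does not show an absence of change. At a smaller simulated spread it called most changes of the larger size put in. Alternatives numbered 15. Precision is limited by the 5 arrays, and the mice are separate animals per the labels.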

Additional observations from a re-analysis of the deposited data

Results flagged for a closer look

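Of 51 member probes with 4 or 5 values, 2 held an array far from the others, where chance alone gives about 1 in 20. Rab17 stood at -1.07 on replicate 2, against -0.09 to 0.10 on its other 3 arrays. Rab11fip2 stood at -0.475 on replicate 5, against 0.18 to 0.24 on its other 3.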

How the results depend on the processing

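Across the 15 alternatives limma called 0 members and 0 probes of the array, for the mutant and for the dye coefficient (no dye coefficient exists without the dye term); the lowest adjusted p of a member was 0.284 for the mutant and 0.278 for the dye coefficient, both for Rab6b with coded values kept. Members above 0 at an unadjusted p under 0.05 numbered 1 (Rab43) with values on at least 3 arrays, and 0 to 2 when 1 array was left out (Rab22a and Rab43 without replicate 3). Members below 0 numbered 2 (Rab10 and Rab23) with the sign of replicates 3 and 5 turned, 1 with values on at least 3 arrays (Rab26), with coded values kept (Rab6b) or with probes of a gene averaged (Rab7), and 0 to 2 when 1 array was left out (Rab11fip4 and Rab26 without replicate 2). Members with the same sign on all 5 arrays numbered 1 with arrays centred on their medians and 1 with arrays centred and scaled (Sar1a in both), 2 with replicates 3 and 5 turned (Rab23 and Rab6a), 1 with probes of a gene averaged (Rab7), and 1 to 3 on all 4 remaining arrays when 1 was left out. At that unadjusted p, 353 of all 15495 tested probes lay higher and 279 lower with values on at least 3 arrays. Lower were 666 of 11300 with signs turned, 203 of 11560 with coded values kept and 108 of 6706 with probes averaged. With 1 array left out, 243 to 551 lay higher and 168 to 352 lower, of 11473 to 13490 tested. Members tested numbered 45 to 69 in these settings. Fits with 1 array left out needed values on 3 arrays, against 4 in the main fit. Rab43 (probe 5426) and Rab26 had no value on the arrays whose removal listed them. They entered through that lower bound, with coefficients of 2.28 and -1.98 in each such fit. Of all 6364 probes on 5 arrays, 124 lay below 0 on each with arrays centred, scaled or not. With probes averaged it was 97 of 4545 genes. With signs turned, 213 of 6364 lay above and 298 below 0 on all 5. With 1 array left out, 460 to 630 of 6766 to 7979 probes lay above and 291 to 569 below 0 on all 4. Members with all these values numbered 29 to 38. Centring, turned signs and averaged probes change the values themselves. Beyond that the cause was not tested. The median mutant coefficient ran from -0.03 to 0.07 and changed sign in 6 of the 15 alternatives, so no direction is read from it, and the median SD between arrays ran from 0.52 to 0.69. Of 39 named and tested member probes, 10 kept the sign of their coefficient in all alternatives that gave a value. With replicates 3 and 5 turned, 15 of the 39 changed sign. The median of 8 of the 9 pathway lists changed sign in at least 1 alternative. No paired analysis was possible because there is 1 group of mutant mice, measured against a pool. Single-probe precision is limited by 3 residual degrees of freedom at most.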
